A study of Mus musculus with 6 samples.

Results

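Synovial macrophages with RNA of Lyve1 together with Cd163, Folr2, Vsig4 or Gas6 were examined among CD45+ cells sorted from joints of mice with antigen-induced arthritis (AIA). Cells were selected on their own measured counts of unique molecular identifiers (UMIs), each of which stands for a captured RNA molecule. The rule, which had 1 further condition, took a cell when Lyve1 had at least 1 UMI and at least 3 of the 5 genes Lyve1, Cd163, Folr2, Vsig4 and Gas6 had at least 1 UMI. This rule found 1880 of 32953 cells, or 5.71% (Wilson 95% confidence interval 5.46% to 5.96%, which covers counting error only). The levels of these genes in the selected cells are therefore a description and were used to support nothing. The cells are called Lyve1 and Cd163 macrophages below, although only 63.2% of them held a UMI of Cd163.

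Resident macrophages settle in the joint lining and in the tissue below it, where they take up debris and hyaluronan and border the blood and lymph vessels. LYVE1 is a receptor for hyaluronan that is also known from lymphatic vessels, CD163 takes up complexes of hemoglobin and haptoglobin, and FOLR2 is a folate receptor. VSIG4 binds complement fragments on opsonized particles, GAS6 bridges dying cells to the receptors TYRO3, AXL and MERTK, and MRC1 is the mannose receptor. In an inflamed joint such cells lie beside macrophages that develop from recruited blood monocytes.

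All 6 samples came from male C57BL/6 mice bought at 8 weeks of age. Each mouse was primed under the skin with 10 μg of methylated bovine serum albumin in complete Freund's adjuvant and received 100 μg of the antigen into the knee on day 21. From that day the mice were injected intraperitoneally with PBS (2 samples) or with 300 μg of PEPITEM (4 samples), a peptide that limits the migration of leukocytes. Joints were digested with collagenase on day 3 after the challenge, CD45+ cells were sorted, and RNA was read from its 3′ end with Chromium. Whether a sample was 1 mouse is not given in the sources used here. The deposited counts pool all samples, and each barcode ends in a number from 1 to 6 that no source used here ties to a sample. Vehicle and PEPITEM were therefore not compared. Here each number is taken as a library whose treatment is unknown. Values are pooled over the 6 libraries, with the lowest, median and highest library beside them, and no test was run. The libraries held 47273569 to 123367661 UMIs, and the Lyve1 and Cd163 macrophages had a median of 13606 UMIs, against 11376 over all cells. In the 6 libraries 138 barcode sequences occurred more than once, in 276 cells, of which 14 were Lyve1 and Cd163 macrophages, and no such barcode marked these macrophages in more than 1 library.

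Positions below are those of whole genes on the mouse genome (GRCm38, GENCODE M21). Lyve1 (chr7:110850607-110863239, minus strand) had 1248 CPM (UMIs of the gene per 1000000 UMIs) in the selected cells, with 692.5 in the lowest library, a median of 1267 and 1370 in the highest. The lowest of these was library 2, and the other 5 libraries lay between 1183 and 1370 CPM. Cd163 (chr6:124304656-124330527, plus strand) had 397.0 CPM (231.4, 399.3 and 473.5 in the lowest, median and highest library). Folr2 (chr7:101839988-101857194, minus strand) had 467.9 CPM and a UMI in 95.8% of the cells, and Gas6 (chr8:13465374-13494490, minus strand) 408.6 CPM and a UMI in 97.6%. Vsig4 (chrX:96247203-96293438, minus strand) was the least widespread, with 361.8 CPM and a UMI in 39.6% of the cells. In all other cells of the series the 5 genes had 6.69 CPM (Lyve1), 7.15 (Cd163), 14.5 (Folr2), 3.31 (Vsig4) and 9.43 (Gas6). Of the selected cells 486 held 3 of the 5 genes, 979 held 4 and 415 held all 5.

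The sixth marker of these cells, the mannose receptor Mrc1 (chr2:14229392-14332057, plus strand), was not part of the rule. It had 1250 CPM in the Lyve1 and Cd163 macrophages (730.3 in the lowest library, median 1133, highest 1696) and a UMI in 95.8% of them, against 123.8 CPM and 15.3% in all other cells. At least 2 of 8 pan-macrophage markers were found in 99.9% of the cells, and C1qa, a subunit of the complement protein C1q, in 99.7%. Markers of lymphatic and blood vessels, which can also carry Lyve1, were near 0: 8 such genes summed to 9.92 CPM (6.98 in the lowest and 10.3 in the median library). Pecam1 was the most abundant of them at 6.39 CPM, Prox1 had 1.43 and Flt4 0.0333 CPM, and 2 of the 8 genes, Cldn5 included, had no UMI at all. These values fit the label as far as macrophages go. That the cells had resided in the joint was not measured.

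Markers of other cells were also read as sums over whole lists. The 8 B cell markers summed to 56.0 CPM (28.9, 61.7 and 169.2 in the lowest, median and highest library), with Ebf1 the highest, the 8 T cell markers to 11.1 CPM and 6 NK cell markers to 9.12 CPM. Markers of mast cells summed to 1.33 CPM and those of erythroid cells to 0.566 CPM, while 8 dendritic cell markers came to 65.1 CPM, led by Cd209a. The 8 fibroblast markers summed to 182.7 CPM, with Pdpn, which macrophages also make, at 105.1 CPM, and 8 osteoclast markers to 403.1 CPM, led by Mmp9. Mmp9 had 684.4 CPM in the cells with neutrophil genes described below and 10.7 CPM in the others. The 8 neutrophil markers stood far above the others at 26825 CPM (11504 in the lowest, 27896 in the median and 57423 in the highest library), of which S100a8 made up 18678 CPM. S100a8 codes for a calcium-binding protein of neutrophil cytosol.

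In the deposited counts, from which the authors had subtracted free RNA, the neutrophil RNA sat in a minority of the cells. Of the 1880 Lyve1 and Cd163 macrophages 541, or 28.8%, held UMIs of at least 2 of 7 neutrophil genes (Ly6g, Retnlg, Mmp8, Ngp, Camp, Ltf and Cxcr2), and 1174 held none. The share was 19.7% in the lowest library, 29.0% in the median and 45.0% in the highest, which was library 2. The 541 cells had 44848 CPM of S100a8 against 195.4 CPM in the remaining 1339. This gene was not used to split them, but it is a neutrophil marker like the 7 genes, so its level supports nothing further. They were also deeper, with a median of 18809 against 12136 UMIs. Counted as mean UMIs per cell, macrophage genes were close in both: 50.8 with and 53.4 without neutrophil genes for Pf4, 39.9 and 43.3 for C1qa, 14.2 and 13.5 for Csf1r. Lyve1 (13.5 against 22.6) and Fxyd2 (8.12 against 22.2) were lower in the cells with neutrophil genes. Mrc1 (24.4 against 18.2) and Sepp1 (42.9 against 32.7) were higher in them. In 1185 of the macrophages S100a8 was stored as a 0, which a count table of this kind otherwise leaves out. For comparison, 4.66% of B cells and 1.23% of T cells in the same libraries held 2 of the 7 genes, at medians of 5949 and 9965 UMIs per cell, and 23.0% of the Fxyd2 and Aqp1 macrophages described below did, at a median of 13814 UMIs, as did 24% of the classical monocytes, at a median of 19399 UMIs. The source of the neutrophil RNA was not tested. Counts of genes below were therefore also made without mixed cells, which means cells with at least 2 markers of neutrophils (S100a8 not counted), B cells, T cells or fibroblasts; 602 of the macrophages (32.0%) were mixed.

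**Figure D1:**
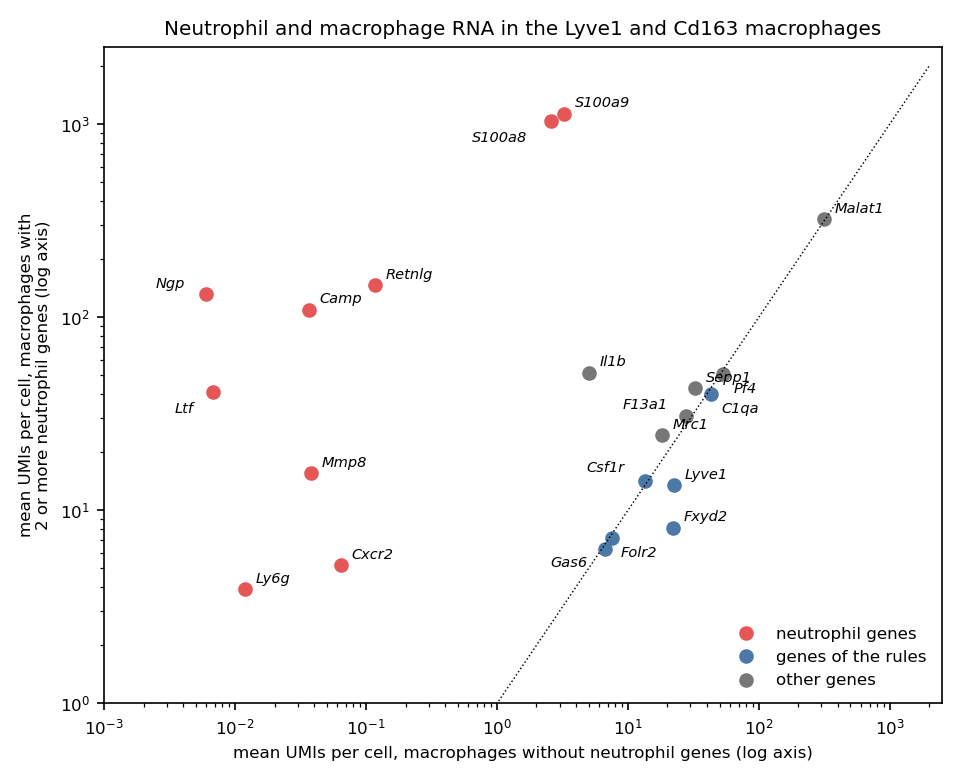
Mean UMIs per cell of single genes in the 1339 Lyve1 and Cd163 macrophages with fewer than 2 of 7 neutrophil genes (x axis) and in the 541 with 2 or more (y axis), both on log axes; each point is a gene and the dotted line marks equal values. Neutrophil genes lie far above the line, the 7 genes by the choice of the cells. S100a8 (1031 against 2.57 UMIs), also a neutrophil marker, lies there too, although it was not used for the choice. Macrophage genes such as Pf4, C1qa and Csf1r lie on or near the line, and Lyve1 and Fxyd2 lie below it.

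The Lyve1 and Cd163 macrophages took very different shares of the libraries. They made up 11.6% of the cells of library 1, 1.03% of library 2, 6.95% of library 3, 12.2% of library 4, 5.62% of library 5 and 2.85% of library 6, which is 388, 60, 203, 489, 525 and 215 cells. The intervals of the highest library (11.3% to 13.3%) and of the lowest (0.803% to 1.33%) cover counting error only, so they do not test a difference between libraries. Among cells with macrophage markers (Csf1r and at least 2 of Cd68, Adgre1, C1qa and Fcgr1), which leaves neutrophils and lymphocytes out of the total, the share was 17.9% and ran from 4.11% in library 2 to 28.9% in library 4. After every cell had been thinned to 5000 UMIs, with shallower cells left out, the share was 5.36% (0.719% in the lowest, 5.88% in the median and 11.1% in the highest library). Cells with 4 or more neutrophil genes and no Csf1r made up 6.30% to 33.8% of the libraries. Because treatment was unknown, the difference between libraries could not be set against PBS and PEPITEM.

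**Figure D2:**
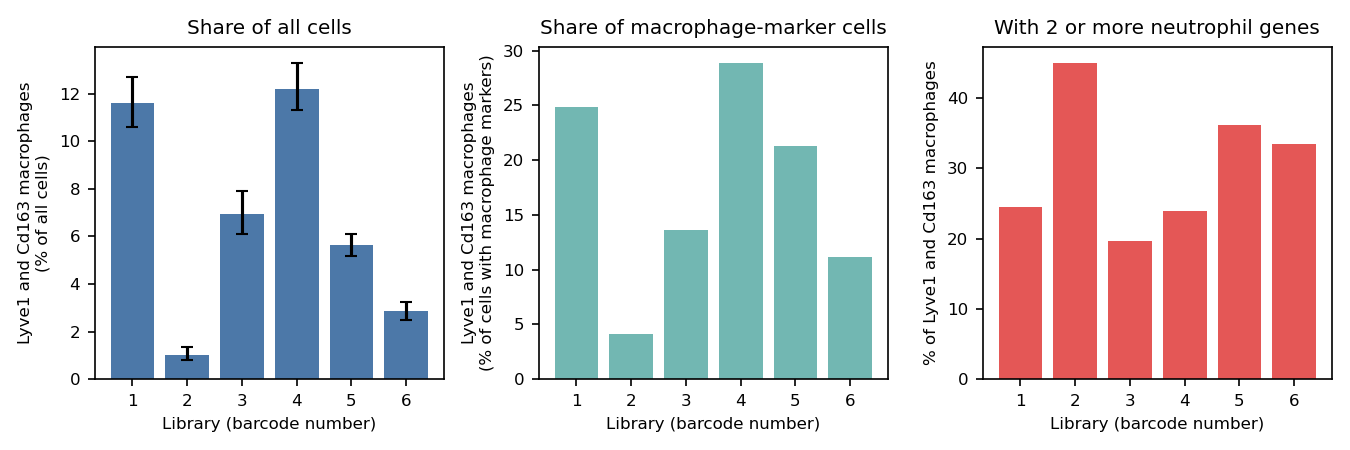
Lyve1 and Cd163 macrophages in each of the 6 libraries of unknown treatment, as a percentage of all cells (left, bars with Wilson 95% intervals), as a percentage of cells with macrophage markers (middle) and the percentage of them with 2 or more of 7 neutrophil genes (right). Library 2 had the lowest shares, 1.03% and 4.11%, and the highest percentage with neutrophil genes, 45.0%, while library 4 had the highest shares, 12.2% and 28.9%.

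Cells just inside and just outside the rule were compared by genes it did not use. Members with 3 of the 5 genes had 1017 CPM of Mrc1 and 3190 of Pf4, and those with all 5 had 1240 and 3086 CPM. Other genes differed more between them: Ltc4s had 151.9 CPM with 3 genes and 347.4 with all 5, Timd4 41.4 and 96.4 CPM, Cbr2 195.5 and 333.6 CPM and Ccr2 162.3 and 69.3 CPM. The 153 members with a single UMI of Lyve1 still had 1101 CPM of Mrc1, but 349.6 CPM of Fxyd2 against 1135 over all members, and 48.4% of them held neutrophil genes. Outside, 163 cells without Lyve1 that held 3 or 4 of the other genes were close in Mrc1 (1244 CPM), with less Timd4 (23.7 against 67.5 CPM) and more of the MHC class II gene H2-Aa (1690 against 653.5 CPM). The 453 cells with Lyve1 alone of the 5 genes had 39.7 CPM of Mrc1 and 122319 CPM of S100a8, and 90.9% of them held neutrophil genes. In 86 cells with Lyve1 and 1 further gene Mrc1 had 396.1 CPM.

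To show where the Lyve1 and Cd163 macrophages differed from other cells of the joint, UMIs were summed per library and set against 2 populations without Lyve1. These were 183 macrophages with Fxyd2 and Aqp1 and 4809 classical monocytes (Ly6c2, Ccr2 and Csf1r present, C1qa at 0). A gene was counted as higher or lower when the ratio of CPM, with 1 CPM added to both sides, was at least 2-fold in that direction in every library with 20 or more cells of both populations, and its mean over both populations was at least 10 CPM. This is a rule of size and no test. A gene that is abundant in 1 population alone can reach this mean and then has to differ, so counts of genes are descriptions. Genes used to choose any of the populations were left out, and both comparisons share the Lyve1 and Cd163 macrophages.

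Against Fxyd2 and Aqp1 macrophages, the Lyve1 and Cd163 macrophages were higher for 36 of 7952 genes (0.453%) and lower for 36 (0.453%) in the 4 libraries with 20 or more cells of both. Genes for a semaphorin, a leukotriene synthase and a clotting factor were among the higher ones, and genes of antigen presentation among the lower ones. The 183 cells are close to them by their markers: 82.0% held at least 2 of the 6 resident markers, and 90.3% of the Lyve1 and Cd163 macrophages held Fxyd2, a regulator of the sodium pump, and 77.0% the water channel Aqp1. Without mixed cells 101 genes were higher (1.26%) and 58 lower (0.725%), with 28 and 30 of the genes above among them, but these counts rest on the 3 libraries that then still held 20 cells of both. The higher count rested on few libraries and was 64 without library 1 and 72 without library 5.

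Sema6a, a transmembrane semaphorin, had the largest ratio of the higher genes with at least 50 CPM. It had 168.4 CPM in the Lyve1 and Cd163 macrophages (56.7, 165.5 and 242.4 in the lowest, median and highest library), against 18.7 CPM in Fxyd2 and Aqp1 macrophages and 0.261 in classical monocytes. The libraries did not overlap with those of the other populations, the highest of which had 28.9 CPM. It was nevertheless found in only 37.9% of the macrophages.

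Ltc4s, the synthase of leukotriene C4, had 246.7 CPM (224.5, 243.5 and 276.2 in the lowest, median and highest library) against 40.1 CPM in Fxyd2 and Aqp1 macrophages, a log2 ratio of 2.59 (1.98 to 2.88 over the libraries). Its level varied little between libraries, and every library exceeded the pooled level of the other population. Coagulation factor F13a1 had 1783 CPM (941.9, 1856 and 2082) against 438.1 CPM, a log2 ratio of 2.02 (1.72 to 2.55). It did not pass against classical monocytes, which had 928.1 CPM of it (log2 ratio 0.94, 0.08 to 1.48 over the libraries). The endothelin receptor Ednrb had 138.0 CPM (63.0, 124.6 and 194.7) against 28.0 CPM in Fxyd2 and Aqp1 macrophages. The eotaxin Ccl24 (347.0 against 90.2 CPM), complement factor C4b (150.6 against 31.1), Npl (59.6 against 15.7), Neo1 (61.0 against 16.4), Plekhg5 (116.7 against 33.4), the purinergic receptor P2ry12 (105.0 against 32.7) and the scavenger receptor Colec12 (123.7 against 39.7) were higher too. Bmp2 was the exception among the 12, since it did not pass in every library without mixed cells, although its log2 ratio was 1.6 there and 1.78 with them (58.8 against 16.4 CPM).

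The lower genes were led by the chemokine Ccl17, which had 77.8 CPM in Fxyd2 and Aqp1 macrophages and was found in 0.319% of the Lyve1 and Cd163 macrophages. Ndnf had 4.16 against 51.1 CPM, Flrt3 8.19 against 67.8 and Tnip3, which codes for an inhibitor of NF-kappaB signalling, 61.0 against 302.9 CPM. The anti-apoptotic Bcl2a1d had 22.4 against 93.2 CPM, and Cd74, H2-Eb1 and H2-Ab1 of MHC class II completed the 8 genes. All 8 were also lower without mixed cells.

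Against classical monocytes 613 of 8064 genes were higher (7.60%) and 345 lower (4.28%), and 849 (10.3%) and 530 (6.45%) without mixed cells, in 6 libraries both times. The median log2 ratio over all genes was -0.02, and -0.10 with TMM scaling factors. C1qc had the largest ratio of the higher genes with at least 50 CPM, with 2142 CPM (1500, 2040 and 2465) against 4.68 CPM, although the monocytes had been chosen without C1qa, which is made together with C1qc. The platelet factor Pf4 had 3296 CPM (1349, 3255 and 3626) against 9.48 CPM. Library 2 was the lowest for Pf4, and the other 5 lay between 3055 and 3626 CPM.

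Receptors were also among the 12 higher genes named. The fibroblast growth factor receptor Fgfr1 had 235.7 CPM (125.9, 244.3 and 258.5) and 84.3% of the cells held it, against 2.14 CPM in monocytes and 127.2 in Fxyd2 and Aqp1 macrophages. Fermt2, an activator of integrins, had 101.8 CPM (58.6, 113.8 and 132.3) against 0.205 CPM, and the lipid receptor Gpr34 had 202.3 against 0.923 CPM. Retnla, C1qb, Sema6a, Ltc4s, the myelin gene Pmp22 (469.2 against 3.08 CPM), Dnm1 (109.0 against 0.252) and Dpysl3 (114.6 against 0.317) were the others of the 12. The 8 lower genes named were the granule proteases Ctsg (7.89 against 243.5 CPM) and Prtn3 (34.5 against 712.3 CPM), the replication factor gene 2810417H13Rik, the histone genes Hist1h1b and Hist1h2ae, the formin Diaph3, the glutamate receptor Gria3 (2.36 against 114.0 CPM) and BC035044.

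**Figure D3:**
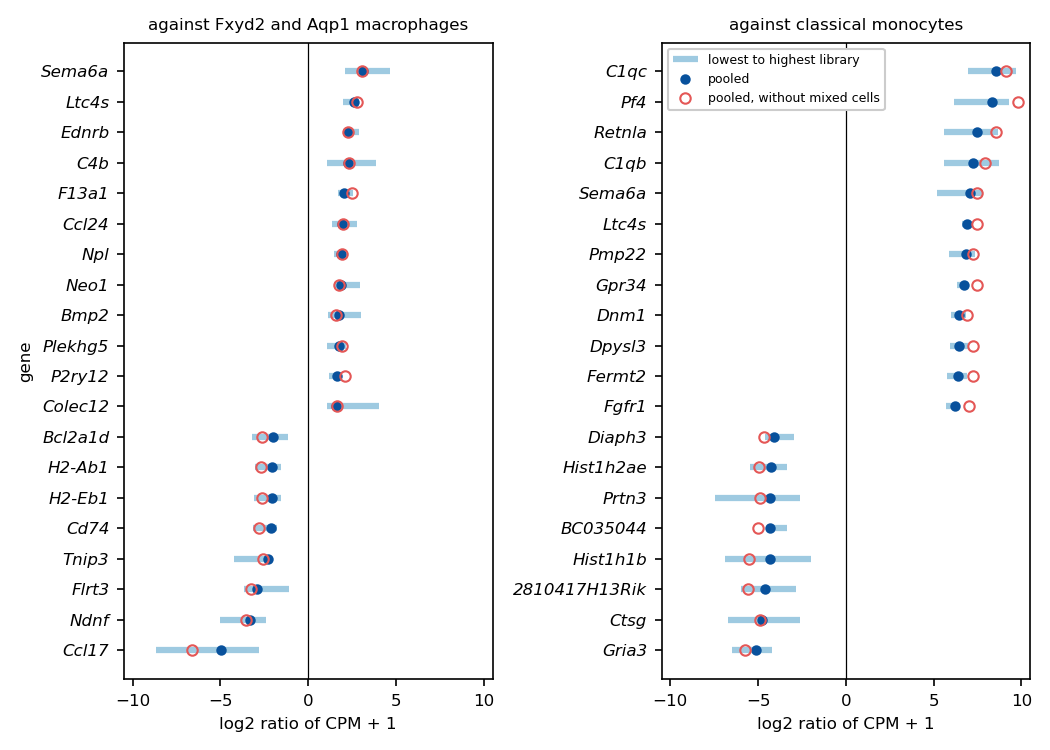
Log2 ratio of CPM (1 CPM added) of the Lyve1 and Cd163 macrophages to Fxyd2 and Aqp1 macrophages without Lyve1 (left) and to classical monocytes (right), for the 12 higher and 8 lower genes with the largest pooled ratios in each; filled points are pooled values, bars run from the lowest to the highest library and open points leave out mixed cells. All open points lie on the same side of 0 as the filled ones, and the 8 genes lower than in monocytes lie further from 0 without mixed cells (Gria3 at -5.74 against -5.10).

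Lists of genes with known roles were read in the same way. Each count is to be read against the share of all genes that passed, which was 0.453% in either direction for Fxyd2 and Aqp1 macrophages and 7.60% higher and 4.28% lower for monocytes. For counts without mixed cells these shares were 1.26% higher and 0.725% lower for Fxyd2 and Aqp1 macrophages, and 10.3% and 6.45% for monocytes. A gene under 10 CPM in 1 of the populations compared passed the filter only through the other. Apart from Ciita, described below, such genes are in the counts, and their part of a count supports nothing. Of 30 resident macrophage genes outside the rule, 29 were in the table and 27 could be compared: 4 were higher than in Fxyd2 and Aqp1 macrophages and 20 than in monocytes, and 0 were lower in either. Without mixed cells 9 of 27 and 19 of 26 were higher. Their median log2 ratios were 1.03 and 4.41. The 4 were Ltc4s, F13a1 and the lectin genes Cd209f (46.7 against 2.00 CPM) and Cd209g (23.7 against 0.334 CPM), which were found in few cells, 11.3% and 9.68%. Cd209f and Cd209g reached the mean of 10 CPM only through the Lyve1 and Cd163 macrophages, so their place in the count supports nothing. Timd4, the phosphatidylserine receptor TIM-4, had 67.5 CPM (44.1, 65.5 and 76.7) and a UMI in 45.3% of the cells, against 19.4 CPM in Fxyd2 and Aqp1 macrophages, with log2 ratios of -0.11 to 3.68, and 1.55 in monocytes. Timd4, Sepp1, Cbr2, the antibody receptor Fcgrt (262.1 against 86.5 CPM) and the ubiquitin ligase Wwp1 (285.9 against 132.6 CPM) were the 5 genes that were higher than in Fxyd2 and Aqp1 macrophages only when mixed cells were left out. Sepp1, the carrier of selenium, had 2228 CPM (1399, 2082 and 2653) against 963.0 and 104.1 CPM, and with all cells passed against monocytes only.

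The growth factor Igf1 (119.5 against 73.1 and 0.979 CPM), the ficolin Fcna (85.3 against 32.4 and 1.10) and the carbonyl reductase Cbr2 (270.6 against 106.9 and 3.41) likewise passed against monocytes and not against Fxyd2 and Aqp1 macrophages. The prostaglandin-degrading enzyme Hpgd was nearly equal in the Lyve1 and Cd163 macrophages and the latter (142.3 and 142.2 CPM), and had 31.2 CPM in monocytes. Mrc1 had a log2 ratio of 0.82 (0.45 to 1.05) to Fxyd2 and Aqp1 macrophages and of 4.72 (3.15 to 5.58) to monocytes. Retnla, which codes for the secreted protein RELM-alpha, was found in 16.8% of the cells at 360.5 CPM (224.4, 337.8 and 456.9), against 80.5 and 1.04 CPM. Its ratios to Fxyd2 and Aqp1 macrophages ran from -0.26 to 7.96 on the log2 scale.

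**Figure D4:**
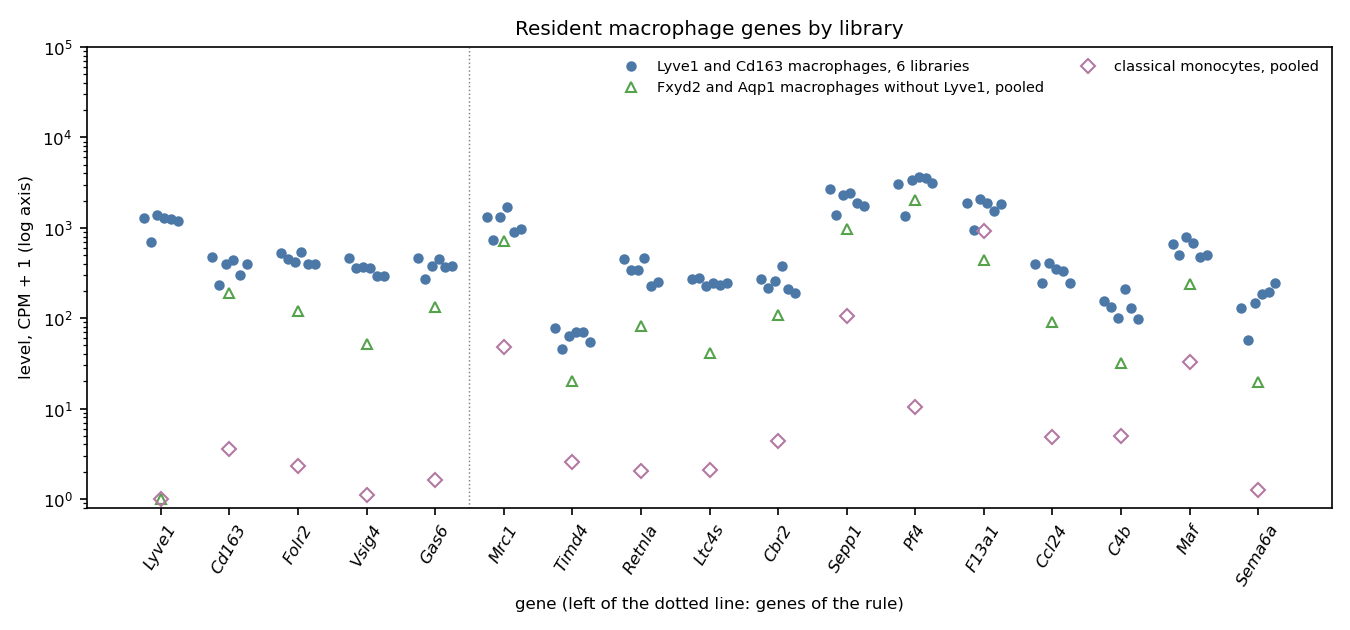
Level (CPM + 1, log axis) of the 5 rule genes (left of the dotted line) and of 12 further genes in the Lyve1 and Cd163 macrophages of each of the 6 libraries (filled points, libraries 1 to 6 from left to right) and in 2 other populations pooled over libraries (open symbols). Lyve1 is at 0 in the other populations because they were chosen without it; Sema6a, Ltc4s, Ccl24, C4b, Sepp1 and Maf of every library lie above both of them.

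Among receptors for dying cells and debris, 0 of the 15 that could be compared were higher than in Fxyd2 and Aqp1 macrophages and 6 than in monocytes, where 0.453% and 7.60% of all genes were, with median log2 ratios of 0.15 and 1.44. Without mixed cells 1 was higher than in the former (Timd4), and 9 were higher and 2 lower than in monocytes. The 6 were Timd4, Mertk, Pros1, Stab1, Cd36 and Itgav. Pros1, a second ligand of the MERTK family, had 208.6 CPM (111.7, 198.2 and 249.0) against 136.2 CPM in Fxyd2 and Aqp1 macrophages and 29.6 in monocytes. Mertk itself had 113.2 CPM (56.7, 107.0 and 157.4) against 71.5 and 3.42 CPM. Axl had 36.4 CPM, against 46.4 and 12.7 CPM. Marco (0.166 CPM) and Stab2 (0.0333 CPM) were near 0, as was Cd5l at 0.566 CPM.

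Of 13 complement genes compared, only C4b was higher than in Fxyd2 and Aqp1 macrophages, and 6 of 12 were higher than in monocytes, where 0.453% and 7.60% of all genes were. Without mixed cells 2 of 11 were higher than in the former, and 7 of 11 were higher and 1 lower than in monocytes. Both counts against monocytes include C1qb and C1qc. The monocytes had been chosen with C1qa, another subunit of C1q, at 0, so this part of the counts supports nothing. C4b had 150.6 CPM (97.1, 131.2 and 210.8), and its log2 ratio to Fxyd2 and Aqp1 macrophages was 2.24 (1.05 to 3.87). C3 had 65.6 against 66.8 CPM there and 255.2 in monocytes, and dropped to 21.5 CPM without mixed cells, where it was counted as lower than in monocytes. For heme and iron, Hmox1 (heme oxygenase) had 625.3 CPM (309.3, 576.9 and 744.1) against 278.8 and 85.3 CPM, and passed against monocytes only. The transferrin receptor Tfrc had 77.5 against 40.7 and 13.3 CPM. In all, 1 of 13 genes of this list was higher than in Fxyd2 and Aqp1 macrophages, and 4 of 12 than in monocytes. The 1 gene was Cp (16.1 against 4.01 CPM), which reached the filter only through the Lyve1 and Cd163 macrophages, so its count supports nothing. Cp fell below the filter without mixed cells (log2 ratio 1.77 with and 2.35 without them). Without mixed cells 0 of 12 and 7 of 11 were higher. The 10 genes of marrow macrophages summed to 825.6 CPM, of which Hmox1 made up most. Trf (transferrin) had 160.6 CPM, the iron exporter Slc40a1 19.9, Vcam1 6.56 and Spic 2.83 CPM.

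Of 19 chemokines compared Ccl24 and Ccl7 were higher than in Fxyd2 and Aqp1 macrophages and Ccl17 lower. Ccl17 (1.5 against 77.8 CPM) reached the filter only through the latter, so its count supports nothing. Against monocytes 6 of 15 were higher and 1, Cxcl10, lower. Over all genes 0.453% were higher and 0.453% lower than in Fxyd2 and Aqp1 macrophages, and 7.60% and 4.28% than in monocytes. Without mixed cells Ccl2 and Ccl12 were higher than in Fxyd2 and Aqp1 macrophages too, which makes 4 of 17, and the counts against monocytes were 6 and 1 of 16. Ccl24, which attracts eosinophils, had 347.0 CPM (243.2, 340.2 and 406.5) and a UMI in 66.9% of the cells, against 3.81 CPM in monocytes. Ccl7 had 965.2 CPM (517.0, 1002 and 1067) against 331.2 and 59.2 CPM. Ccl2, which attracts monocytes, had 1453 CPM (575.2, 1351 and 1783) against 716.6 and 237.5 CPM, with ratios that missed the rule in both. Ccl2 and Ccl7 were lowest in library 2. The neutrophil-attracting chemokine Cxcl2 had 1612 CPM against 1970 in Fxyd2 and Aqp1 macrophages and 296.7 in monocytes. Of 19 chemokine and cytokine receptors compared, 0 passed against Fxyd2 and Aqp1 macrophages, and the transforming growth factor receptors Tgfbr1 and Tgfbr2 were higher than in monocytes (Tgfbr2 256.5 against 45.6 CPM).

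Of 22 inflammatory mediators compared with Fxyd2 and Aqp1 macrophages, 0 passed in either direction, and 2 were higher without mixed cells (S100a8 and Vcan). Tnf, which codes for tumor necrosis factor, had 222.0 CPM (139.3, 209.1 and 274.8) and a UMI in 71.0% of the cells, against 221.7 CPM there and 30.9 in monocytes. Against monocytes Tnf and Il1a were higher and 3 genes lower, and without mixed cells the same 2 were higher and 6 of 20 genes lower. Spp1 (osteopontin) had 159.9 CPM (84.6, 135.7 and 256.0), against 162.6 and 169.3 CPM, and was found in 17.8% of the cells, with 69.4 CPM when mixed cells were left out. Il1b had 1151 CPM, but its mean was 51.5 UMIs in cells with neutrophil genes and 5.04 in those without, and its pooled level without mixed cells was 359.3 CPM, which was counted as lower than in monocytes. Ptgs2 likewise went from 167.0 to 38.0 CPM without mixed cells, and Nos2 was near 0 (0.699 CPM). For interferon-induced genes 1 of 11, Ifitm3, was lower than in monocytes (3 without mixed cells), and 0 of 9 passed against Fxyd2 and Aqp1 macrophages.

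Genes of MHC class II, which present antigen to T cells, were lower in the Lyve1 and Cd163 macrophages than in Fxyd2 and Aqp1 macrophages for the 6 genes that had at least 10 CPM in the former, where 0.453% of all genes were lower, and for the same 6 without mixed cells, where 0.725% were. H2-Aa had 653.5 CPM (351.3, 554.9 and 961.0) against 2471 CPM, and Cd74 had 1638 CPM (831.1, 1462 and 2535) against 7148 CPM. Libraries 3 and 4 were the highest and library 5 the lowest for both. Only 31.0% of the cells held H2-Aa. The transactivator of these genes, Ciita, had 6.59 against 26.7 CPM and is not counted, since it passed the filter only through the latter. Against monocytes 1 of 6 genes, H2-DMa, was lower (76.8 against 212.9 CPM; 2 of 6 without mixed cells), and the median log2 ratio was -0.27.

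MAF is a transcription factor of mature macrophages. Maf had 609.0 CPM (471.4, 575.5 and 787.7) and was higher than in both populations, at 236.4 and 31.8 CPM, and it was the only one of 27 transcription factors compared that was higher than in Fxyd2 and Aqp1 macrophages. Against monocytes 11 of 26 were higher, and without mixed cells 14 of 27 were higher and 2 lower. Among the 11 were Hes1 (87.1 against 7.47 CPM), Egr2 (116.5 against 10.2), Atf3 (1008 against 335.4) and Rbpj (874.9 against 152.9). Gata6, which marks macrophages of the body cavities, had 0.0333 CPM. For immediate early and heat shock genes, which enzymatic digestion of tissue can raise, 0 of 16 passed against Fxyd2 and Aqp1 macrophages, and 4 (Fosb, Egr1, Dusp1 and Zfp36) were higher than in monocytes. The sum of the 16 was 13520 CPM, against 10775 and 7065 CPM. The part of digestion in these levels was not tested.

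Of 19 growth factor genes compared, Bmp2 was higher than in Fxyd2 and Aqp1 macrophages, 10 were higher than in monocytes and 0 were lower in either. Without mixed cells Vegfb and Csf1, but not Bmp2, were higher than in Fxyd2 and Aqp1 macrophages, although the pooled log2 ratio of Csf1 was -1.23 there, and 8 were higher and 2 lower than in monocytes. Bmp2, a bone morphogenetic protein, had 58.8 CPM (21.2, 58.7 and 86.7). Pdgfb had 46.3 CPM against 53.8 in Fxyd2 and Aqp1 macrophages and 1.78 in monocytes, Pdgfc 94.7 CPM against 63.4 and 0.662, and the receptor Nrp2 341.3 CPM against 285.5 and 19.9. Vegfa, the growth factor of blood vessels, had 34.2 CPM (21.1, 36.5 and 61.4) against 28.7 and 74.4 CPM, and 10.3 CPM without mixed cells, where it was counted as lower than in monocytes. Of 18 lysosome genes and 13 lipid genes 0 passed against Fxyd2 and Aqp1 macrophages. Against monocytes 4 of 19 lysosome genes were higher (Ctsb, Ctsd, Lgmn and Ctsk, a collagen-degrading protease, with 68.9 against 3.38 CPM, in 12.3% of the cells) and Ctsh was lower. Of 13 lipid genes Apoe (2232 against 509.9 CPM), Abca1, Pltp and Cd36 were higher than in monocytes, Apoe not without mixed cells, and the fatty acid-binding protein Fabp5 was lower (54.1 against 210.4 CPM).

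Genes known from macrophages of the joint lining were found in part of the cells. Sparc, a secreted protein that binds collagen, had 214.1 CPM (148.7, 222.6 and 288.8) and was found in 26.3% of the cells, against 45.4 CPM in Fxyd2 and Aqp1 macrophages, with log2 ratios of 0.90 to 3.90, and 3.59 in monocytes. Trem2 had 324.6 CPM (284.4, 328.5 and 365.1) and a UMI in 82.2%, Cx3cr1 99.2 CPM (70.8, 105.0 and 161.3) and a UMI in 38.3%. The 10 genes of this list summed to 1779 CPM, against 1876 in Fxyd2 and Aqp1 macrophages and 444.4 in monocytes. The median log2 ratios of the 7 genes compared were -0.23 and 1.53, in this order. Of these 7 genes 0 passed against Fxyd2 and Aqp1 macrophages, and Trem2, Sparc and Cd9 were higher than in monocytes. Without mixed cells Sparc was higher than in the former, and 5 of 7 were higher than in monocytes. Of the genes for the barrier that lining macrophages form, the junction molecule F11r had 75.8 CPM (63.3, 73.2 and 91.7) and a UMI in 40.4% of the cells, against 107.9 and 27.4 CPM, while the tight junction genes Tjp1 and Cldn5 and the cadherin Fat4 were near 0 (1.20, 0 and 1.03 CPM).

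The Lyve1 and Cd163 macrophages were sorted into 8 sub-clusters by all their variable genes, so that the genes below describe the grouping and test nothing. All 8 were found in every library. Sub-clusters 1, 2 and 7 (101, 318 and 25 cells) were led by neutrophil or precursor genes: Ltf, Ngp and Camp in the first, Stfa2l1, Il1r2 and Csf3r in the second, Elane, Prtn3 and Top2a in the last. Of their cells 100%, 89.9% and 76.0% held neutrophil genes. Sub-cluster 5 (185 cells) was led by the interferon-induced chemokine Cxcl9 (in 21.1% of its cells and at 0 in the lowest library), by Ms4a4c and by Ly6a. H2-Eb1 (1734 against 180.2 CPM in the other cells) stood at the eighth place. The receptor Ccr2 (305.5 CPM) was found in 85.4% of its cells, against at most 36.0% in any other sub-cluster. Sub-cluster 5 had a median of 31248 UMIs, and 65.9% of its cells held neutrophil genes. Of its cells 22.7% held 2 dendritic cell markers, the highest share of the 8, and 10.3% each held 2 B cell or fibroblast markers. Sub-cluster 8 (62 cells) was shallow, with a median of 2470 UMIs. These groups keep numbers and received no name.

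Sub-clusters 3, 4 and 6 were nearly free of neutrophil genes (1.23%, 0% and 0.772% of cells) and made up 26.0%, 23.5% and 13.8% of the macrophages. Sub-cluster 3 (488 cells) had the most Mrc1 (2168 CPM; 1638 to 2744 over the libraries) and was led by Cxcl13, which was found in 3.48% of its cells, Retnla, the metallothionein Mt2 and Ccl2, followed by Cxcl1 and, at the eighth place, Hmox1. Ccl2 reached 3000 CPM (995.1 to 3950 over the libraries) and was found in 91.0% of its cells, but Retnla (816.8 CPM, 27.6 to 3483) in 20.9% only and Cxcl1 (209.4 CPM, 84.1 to 1802) in 20.1%. Sub-cluster 4 (442 cells) was led by the collagen genes Col1a2, Col1a1 and Col3a1, which were found in 1.81%, 2.04% and 0.905% of its cells. Fxyd2 (3566 CPM; 2673 to 4447) came after them and Aqp1 (1779 CPM; 1442 to 2222) at the seventh place, and these were found in 98.2% and 94.8% of the cells. Ccl2 (321.7 CPM) and Hmox1 (271.7 CPM) were low in it. Sub-cluster 6 (259 cells) was led by Sparc (1152 CPM; 979.5 to 1264), S100b, Olfml3, Fn1 and the rule gene Vsig4 (1824 CPM; 1295 to 2145). It had the highest Cx3cr1 (411.4 CPM; 255.1 to 702.8) and the highest Trem2 (885.6 CPM; 742.7 to 1085) of the 8, little Cd163 (164.3 CPM) and little H2-Aa (79.2 CPM). Its share of the macrophages was 10.3% in the lowest library, 15.6% in the median and 21.7% in the highest.

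**Figure D5:**
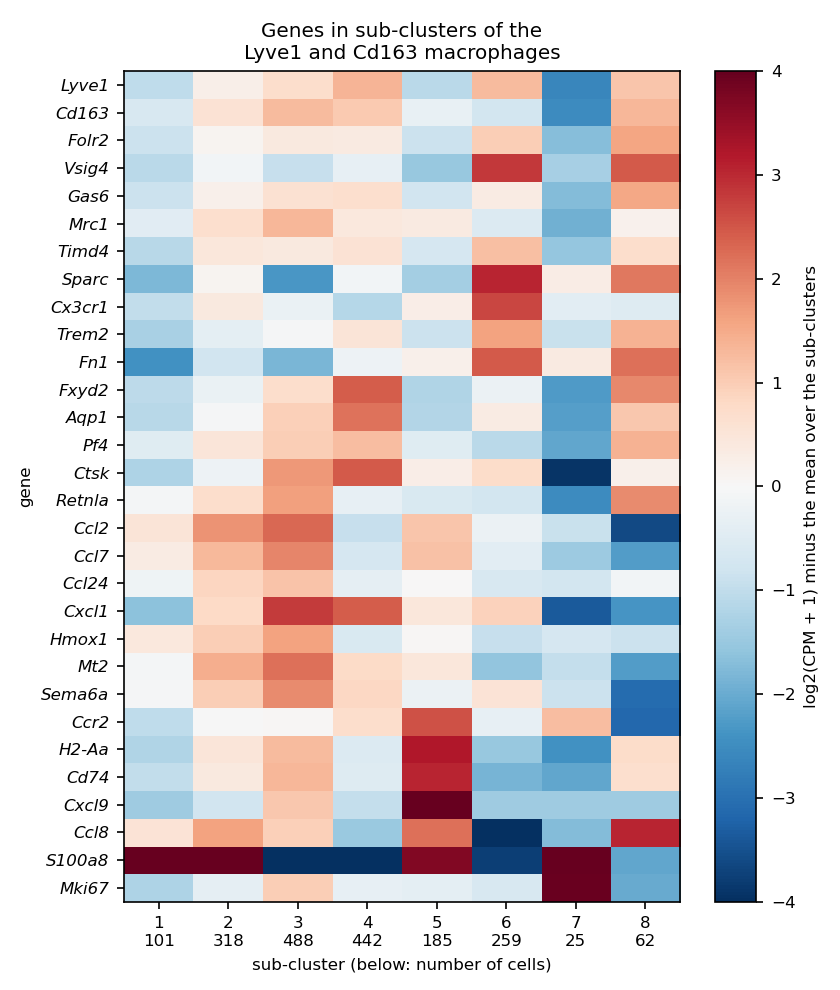
Level of 30 genes in the 8 sub-clusters of the Lyve1 and Cd163 macrophages, as log2(CPM + 1) minus the mean over the sub-clusters (red above, blue below, colors end at 4 and -4); the numbers of cells stand under the sub-clusters. Sub-cluster 6 has high Vsig4, Sparc, Cx3cr1 and Trem2, sub-cluster 4 high Fxyd2 and Aqp1, sub-cluster 3 high Mrc1, Ccl2 and Hmox1, sub-cluster 5 high MHC class II and Cxcl9, and S100a8 is high in 1, 2, 5 and 7.

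Pairs of genes were also read cell by cell after thinning to 5000 UMIs, in the 1183 deep enough macrophages that were not mixed. These are cells that also made the sub-clusters, and Vsig4 is a gene of the rule, so the shares describe the same cells again and support nothing. Vsig4 was found in 35.1% of them. Of the cells with Vsig4 50.8% held Sparc, 37.1% Cx3cr1 and 40.5% Timd4, against 12.5%, 16.8% and 22.8% of the cells without Vsig4. H2-Aa (12.8% against 23.2%) and the monocyte receptor Ccr2 (4.82% against 14.3%) were found less often with Vsig4. Cells with H2-Aa, 19.5% of the total, held Ccr2 in 31.2% against 6.09% and Retnla in 24.7% against 8.93%. Retnla, found in 142 of the cells, went with Ccl24 (71.8% against 49.1%) and away from Sparc (12.7% against 27.8%). Fxyd2 was found in 85.5% and was about as frequent with Vsig4 (83.9%) as without it (86.5%). These shares come from cells of pooled libraries and carry no test.

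Few of the macrophages had RNA of dividing cells. After thinning, 26 of 1765 (1.47%) held at least 3 of 13 cell cycle genes, and 7 of 1183 (0.592%) without mixed cells. The share was 2.89% (5 of 173 cells) in Fxyd2 and Aqp1 macrophages and 34.5% in classical monocytes, with median depths before thinning of 13814 and 19399 UMIs. In the same order it was 2.38% (3 of 126 cells) and 37.1% without mixed cells. Unthinned, it was 2.87% in the Lyve1 and Cd163 macrophages. The 14 cell cycle genes in the table summed to 209.8 CPM (149.6, 173.7 and 402.1) against 288.8 CPM in Fxyd2 and Aqp1 macrophages and 1699 in monocytes. Mki67 had 34.5 CPM (14.8, 28.5 and 69.9) against 206.2 CPM. The monocytes had been chosen without leaving out precursors or dividing cells, and 36.9% of them held Prtn3 after thinning.

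Genes of the adiponectin and PEPITEM pathway were read because PEPITEM is released downstream of the adiponectin receptors. The adiponectin receptors Adipor1 (136.9 CPM; 122.4, 138.1 and 174.7 over the libraries) and Adipor2 (96.9 CPM; 92.2, 94.6 and 117.3) lay within 2-fold of both populations. Ywhaz, the gene of the protein from which PEPITEM is cut, had 428.2 CPM (378.4, 441.6 and 493.2), against 416.4 in Fxyd2 and Aqp1 macrophages and 375.8 in monocytes. S1pr1, a receptor for sphingosine 1-phosphate, had 79.6 CPM (61.6, 77.3 and 93.8) against 40.4 and 1.94 CPM. The adhesion molecule Icam1 had 223.2 CPM (113.3, 212.0 and 304.6) against 347.9 and 35.6 CPM. S1pr1 and Icam1 were the genes of 7 compared that were higher than in monocytes, and 0 of 7 passed against Fxyd2 and Aqp1 macrophages.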

How the data were processed

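The authors aligned reads to mm10 with Cell Ranger 7.0.0. SoupX 1.6.2 served them to subtract free RNA, DoubletFinder 2.0.3 to drop doublets and Seurat 4.3.0 to filter cells. They deposited whole UMI counts for 20394 genes and 32953 cells, not scaled for depth. The table stores 1724738 zeros, read as 0. No further cells or doublets were removed here. The rules for the members and both other populations had a further condition on 1 gene that is not reported here.

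The members and gene lists were chosen with earlier results of these data known. UMIs were summed per population and library and divided by the total (CPM). Named genes are the 12 higher and 8 lower with the largest pooled ratios among those with at least 50 CPM, listed genes, and leading sub-cluster genes. Sepp1, Irg1 and 2810417H13Rik are older symbols of Selenop, Acod1 and Pclaf. Sub-clusters came from scanpy 1.11.5 (2000 variable genes, 30 components, 15 neighbors, Leiden resolution 0.5). Alternatives covered the rule, fold, filter, pseudocount, thinning to 5000 UMIs, mixed cells, TMM factors (edgeR 4.0.16) and each library left out. The gene comparison was also run on simulated data, of which no value is given here, so that run supports nothing in the text.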

Additional observations from a re-analysis of the deposited data

How the results depend on the processing

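No result has a test, so a count is called moved when it left the main value by over 1.5 times, and a share when it left its counting interval. The share of Lyve1 and Cd163 macrophages (5.71%) was 5.24% with 2 UMIs of Lyve1 required, 4.23% with 4 of the 5 genes, 5.97% with 2, 5.36% in thinned cells and 4.80% to 6.70% with each library left out. Reading stored zeros as detected gave 5.77%. Leaving mixed cells out gave 12.6%, since most neutrophils, B cells and T cells then leave the total too. With all cells kept in the total it was 3.88%, an alternative chosen after the data had been seen.

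The counts in the text are 36 genes higher and 36 lower than in Fxyd2 and Aqp1 macrophages, and 613 and 345 for monocytes. In this order they were 12, 10, 335 and 147 at 3-fold, and 14, 11, 287 and 136 at a mean of at least 50 CPM. With the pooled ratio in place of every library they were 134, 97, 1076 and 755. Against Fxyd2 and Aqp1 macrophages, 93 genes were higher and 55 lower without the filter, 22 lower with 5 CPM added and 19 lower after thinning. Without mixed cells 101 were higher and 58 lower than in these, and 530 lower than in monocytes. Each library left out gave, in the same order, 35 to 72 (64 without library 1, 72 without library 5), 36 to 50, 618 to 734 and 339 to 407. The stricter fold and filter and the pooled ratio change the counts by construction, and the cause of the other changes was not tested. No count left 1.5 times its main value with TMM factors. No paired analysis was possible because no cell could be assigned to a sample, which holds for PBS and PEPITEM. Ratios to the other populations were taken within each library. The 60 macrophages of library 2 and the 183 Fxyd2 and Aqp1 macrophages limit the depth of every comparison that rests on them.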

Other observations

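In the deposited counts, 64.3% of the Lyve1 and Cd163 macrophages had S100a9 and 63.0% had S100a8 stored as a 0, while 98.9% and 97.2% of the 541 cells with neutrophil genes kept counts of them, at means of 1130 and 1031 UMIs. Entries stored as 0 made up 1.68% of all entries.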
